A study of Mus musculus with 4 samples.

Results

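The Janus kinases (JAKs) and the signal transducers and activators of transcription (STATs) carry cytokine signals from the cell surface to DNA. They were followed here as 9 genes, the kinases Jak1, Jak2, Jak3 and Tyk2 and the factors Stat3, Stat4, Stat5a, Stat5b and Stat6, picked by symbol from 52636 gene IDs. RNA had been sequenced from sorted mouse regulatory T cells, gated as CD4+CD62L+CD25bright, of C57BL/6 mice aged 7 weeks. There were 2 libraries of Vav1R63W mice, numbered replicates 2 and 3, and 2 labelled Vav1R63WThemis1-T-/-, with the same numbers, called labelled deletions 2 and 3 below. Both groups carry the knock-in allele Vav1R63W, a change in a signalling protein of the T cell receptor, so neither is wild type. The second group is also meant to lack Themis1, another T cell receptor signalling protein, in T cells. What drives that deletion is not given in the sources used here, nor whether a library is 1 mouse or a pool. The p-values below therefore measure the spread between these libraries, which may be technical.

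JAKs sit on the inner tails of cytokine receptors, and phosphorylate the receptor and the STAT proteins that dock on it when a cytokine brings the chains together. Phosphorylated STATs pair, enter the nucleus and bind DNA. In regulatory T cells the best known route runs from the interleukin-2 receptor through JAK1 and JAK3 to STAT5, which sustains the lineage factor Foxp3. The comparison asked whether the transcripts of this machinery differed when the Themis1 deletion was added to Vav1R63W. RNA levels do not show phosphorylation, through which these proteins are switched on.

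The targeted gene did not follow the labels. Themis had 283 and 97 reads in the Vav1R63W group, 685 in labelled deletion 2 and 0 in labelled deletion 3. Gene totals test the deletion only if the removed exons carry reads. Each direction below is between labels, and for the 9 genes results that rest on 1 of these libraries are given with and without it. For other named genes no fold change with a library left out is given. Reads on genes numbered from 13963670 to 15953194 per library. All 8 regulatory T cell markers had reads, with summed levels of 4168 to 5281 reads per megaread on genes (CPM), and Foxp3 was at 636 to 1014 CPM. Of 6 monocyte and macrophage markers 0 had reads. Of 6 B cell markers 3 had reads, with sums of 1179 to 1370 CPM, and these were Ighm at 1111 to 1307 CPM, Cd79b at 35.5 to 63.6 CPM and Cd79a at 0 to 9.64 CPM. The defining B cell markers Ms4a1 and Pax5 had none. Of the other lists, 1 of 5 dendritic cell, 2 of 5 NK cell, 2 of 4 CD8 T cell and 2 of 4 erythroid and platelet markers had reads, with sums of at most 14.1, 160, 66.8 and 7.65 CPM in any library. The part of these other cells in the results was not tested.

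STAT factors act through short DNA sites near their target genes. STAT dimers bind the palindrome TTCNNNGAA, and STAT6 prefers a spacer longer by a base, TTCNNNNGAA. Both patterns were searched in RefSeq promoter windows of 300 bases (250 before to 50 after the start, GRCm38.p6). Being palindromes, they read alike on both strands. The shorter pattern was in 8.30% of 32851 windows and the longer in 6.95%. All 9 genes had a window, 12 in all, and 0 of the 12 held either pattern, which says only that these letters are not in these windows. Of 13 windows of listed inhibitors and phosphatases, 2 held the shorter pattern, and these belong to Cish and Socs3, both feedback inhibitors of JAK and STAT signalling. They are shown as known targets of STAT5 and of STAT3, and their RNA levels are given with the inhibitors. Capitals mark TTCNNNGAA, which starts at bases 251 and 262 of the Cish window (chr9:107296409-107296708, plus strand) and at base 97 of the Socs3 window (chr11:117969317-117969616, minus strand).
Cish: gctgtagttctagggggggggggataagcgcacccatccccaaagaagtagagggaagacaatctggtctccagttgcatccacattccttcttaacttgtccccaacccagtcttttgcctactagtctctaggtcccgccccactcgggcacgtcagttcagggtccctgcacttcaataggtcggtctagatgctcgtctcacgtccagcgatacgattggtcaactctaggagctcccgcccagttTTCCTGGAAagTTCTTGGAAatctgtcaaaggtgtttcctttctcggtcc
Socs3: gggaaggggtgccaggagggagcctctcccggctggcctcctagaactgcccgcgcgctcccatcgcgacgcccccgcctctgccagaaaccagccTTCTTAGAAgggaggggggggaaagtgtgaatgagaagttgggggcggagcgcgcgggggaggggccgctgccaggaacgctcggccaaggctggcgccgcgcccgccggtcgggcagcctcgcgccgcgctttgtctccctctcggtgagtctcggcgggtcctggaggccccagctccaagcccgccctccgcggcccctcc
The sites of Cish lie at the start of the gene and just after it, 2 bases apart, and the site of Socs3 lies before its start. A match is a sequence description and was not measured as binding.

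All 9 genes had reads in every library and passed the filter on low counts. Levels between genes were compared as reads per kilobase of exon and megaread (RPKM), with lengths of the union of exons in GENCODE M21. Stat6, the factor downstream of interleukin-4, was highest at 80.4 ± 20.1 RPKM (SD over 4 libraries). Jak1, which pairs with most cytokine receptors of T cells, followed at 68.2 ± 5.75 RPKM, and Stat5b, which shares the interleukin-2 route with Stat5a, at 52.9 ± 14.6 RPKM. The ranges of these 3 genes overlapped from each to the next. Jak3, the kinase bound to the common gamma chain, stood at 34.3 ± 3.86 RPKM and Stat3, which transmits interleukin-6, interleukin-10 and interleukin-21, at 33.5 ± 9.40 RPKM. Those 2 overlapped each other. The lowest Stat5b library lay above the highest Jak3 library, but Stat5b and Stat3 overlapped. Stat5a at 14.5 ± 1.56 and Stat4, the interleukin-12 factor, at 14.4 ± 4.50 RPKM overlapped each other, and both lay below every Stat3 library. Tyk2, a kinase of interferon and interleukin-12 receptors, at 4.88 ± 2.61 RPKM and Jak2, a kinase of the interferon-gamma receptor, at 4.23 ± 2.89 RPKM were lowest, and their ranges overlapped. Leaving out exon bases shared with other genes raised Stat4 to 19.7 RPKM, because 1033 of its 3872 exon bases lie in the transcript Gm28177. Stat4 then ranked above Stat5a, and its highest library exceeded the lowest Stat3 library. The ranges compared above use all exon bases.

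**Figure D1:**
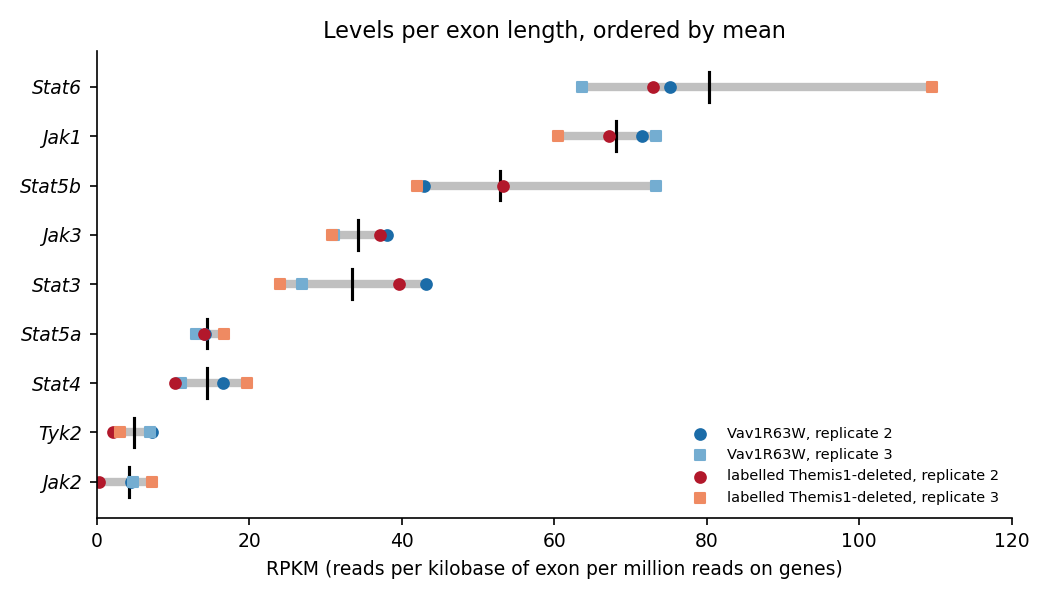
RPKM (horizontal axis) of the 9 genes in each of the 4 libraries (points), with the mean (black bar) and the range (grey). Stat6, Jak1 and Stat5b lie at the top and Tyk2 and Jak2 at the bottom, where no library exceeds 7.32 RPKM.

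Jak1 and Jak3 made up most kinase transcript in each library. Jak1 was 59.0% and 63.1% of summed JAK RPKM in the Vav1R63W libraries and 62.9% and 59.4% in labelled deletions 2 and 3. Jak3 was 31.4% and 26.8%, then 34.8% and 30.3%. The share of Tyk2 was 5.95% and 6.03% in Vav1R63W and 2.04% and 3.05% in the other group, so both lay below both controls. Stat5b exceeded Stat5a in every library, with RPKM ratios of 3.02 and 5.63 in Vav1R63W and 3.79 and 2.52 in the labelled deletions. The summed CPM of the kinases was 793 and 769 in Vav1R63W and 702 and 660 in the other group. The summed CPM of the 5 factors was 1146, 1080, 1135 and 1139 in the same order, without separation by label.

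Across the transcriptome edgeR's quasi-likelihood test called 0 of 10216 genes (0%) at a Benjamini-Hochberg adjusted p under 0.05, so 0 of the 9 genes passed. At an unadjusted p under 0.05 it listed 509 genes (4.98%) and again 0 of the 9. DESeq2, an alternative test, called 206 of 10972 genes (1.88%), and in the authors' deposited table the calls were 123 of 7865 (1.56%). Both called 0 of the 9 genes. The libraries of the 2 groups did not overlap in CPM for 2 of the 9, Tyk2 and Jak1, both lower in the labelled deletions. Over all tested genes the groups did not overlap for 33.8% and lay apart in the lower direction for 18.7%. The share of 22.2% here (2 of 9) is near this background and is not a result about the 9 genes. With TMM scaling (edgeR's correction for composition) Stat5a also separated, in the higher direction, as 15.1% of tested genes do by CPM. The fitted log2 fold changes of the 9 had a median of -0.12, with 4 positive and 5 negative, beside a median of 0.00 over all tested genes.

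**Figure D2:**
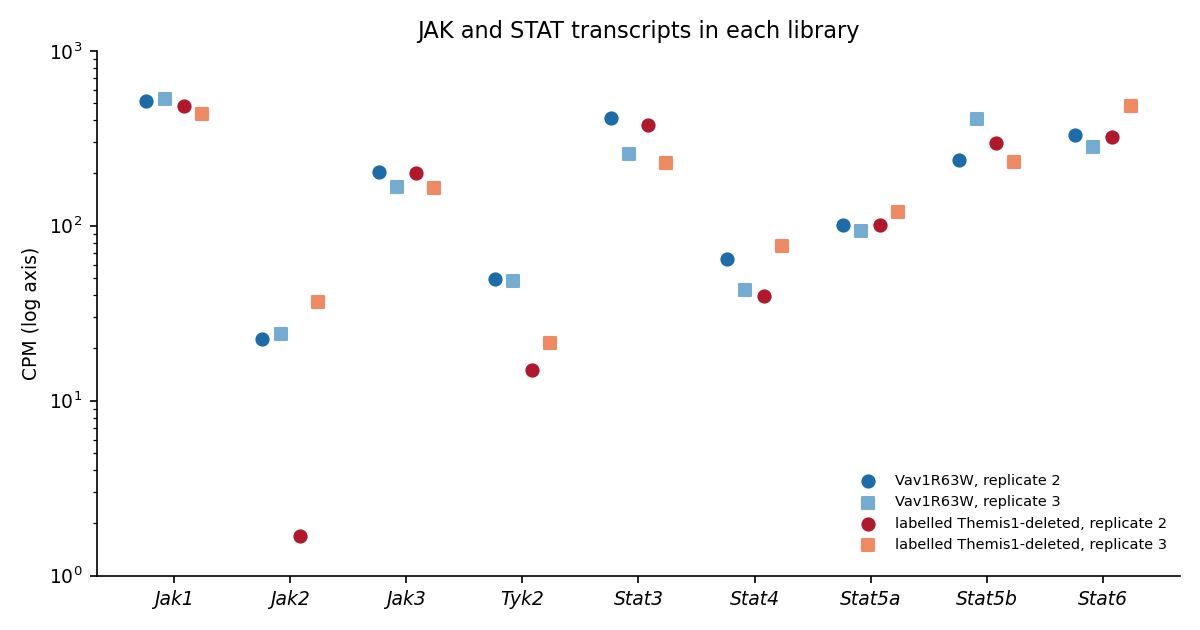
CPM on a log axis of the 9 genes in the 4 libraries (blue: Vav1R63W, red and orange: labelled deletions). Tyk2 shows the red and orange points below both blue ones, and Jak2 shows 1 library at 1.69 CPM with the others between 22.6 and 36.8.

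Of the kinases, Tyk2 (ENSMUSG00000032175, GRCm38 chromosome 9, 21104068 to 21131243, minus strand) had the largest group difference beside its spread. It had 694 and 693 reads in Vav1R63W and 239 and 297 in labelled deletions 2 and 3, or 49.6, 48.1, 14.98 and 21.3 CPM. Both controls lay close together and above both others. The mean was 48.8 ± 1.01 CPM against 18.1 ± 4.45 CPM (SD, n = 2 each), a ratio of 0.371. In sorted bulk cells, fewer cells with a transcript and less of it per cell cannot be told apart. The fit gave a log2 fold change of -1.40 ± 0.63 (SE, edgeR adjusted p = 1.00), with a 95% interval from -3.10 to 0.30. Tyk2 did not pass with DESeq2 (log2 fold change -1.40, adjusted p = 0.612). It did not pass in the authors' deposited table either, where its log2 fold change was -0.92 (adjusted p = 0.224). Why these values differ on the same counts was not tested. Before adjustment, p was 0.0851 with edgeR, 0.0507 with DESeq2, 0.0430 with limma-voom (another test) and 0.00925 in the deposited table. The edgeR difference was -1.15 without labelled deletion 2, which had 685 Themis reads, and -1.71 without labelled deletion 3. With DESeq2 and without labelled deletion 3, Tyk2 was called (adjusted p = 0.0158) among 8.60% of genes. Its exons share 554 bases with the antisense gene 1700084C06Rik, which had 0 reads. In the strand columns Vav1R63W replicate 2 had 66 more Tyk2 reads in all than without strand, and the other libraries 0 more.

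Jak2 (ENSMUSG00000024789, chromosome 19, 29251828 to 29313080, plus strand) varied most. It had 317 and 345 reads in Vav1R63W, 27 in labelled deletion 2 and 514 in labelled deletion 3, or 22.6, 24.0, 1.69 and 36.8 CPM. The library with the lowest value and the library with the highest carry the same label, 21.7-fold apart, whereas the Vav1R63W libraries differed 1.06-fold. A level in labelled deletion 2 over 10 times below each of the other libraries was seen for 285 of 10216 tested genes (2.79%). The log2 fold change of Jak2 was -0.23 ± 1.57 (SE, edgeR adjusted p = 1.00), with an interval from -4.49 to 4.04 that leaves its direction unresolved. It was 0.70 without labelled deletion 2 and -3.78 without labelled deletion 3. With DESeq2 and without labelled deletion 3 it was also -3.78, a value resting on the 27 reads of 1 library.

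Jak1 and Jak3 were the steadiest kinases. Jak1 (ENSMUSG00000028530, chromosome 4, 101152367 to 101265282, minus strand) was at 517 and 530 CPM in Vav1R63W and 486 and 437 CPM in labelled deletions 2 and 3. The groups did not overlap, by a small margin. On the log2 scale it differed by -0.16 ± 0.13 (SE, edgeR adjusted p = 1.00), with an interval from -0.51 to 0.20. Jak3 (ENSMUSG00000031805, chromosome 8, 71676296 to 71690575, plus strand) was at 204 and 167 CPM in Vav1R63W and 199 and 165 CPM in the others. The 2 libraries numbered 2 lay above the 2 numbered 3, and the groups overlapped. The log2 fold change of Jak3 was 0.00 ± 0.22 (SE, edgeR adjusted p = 1.00), with an interval from 0.661-fold to 1.51-fold.

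Of the factors, Stat3 (ENSMUSG00000004040, chromosome 11, 100885098 to 100939540, minus strand) followed the replicate number rather than the label. It was at 412 and 257 CPM in Vav1R63W replicates 2 and 3 and at 377 and 229 CPM in labelled deletions 2 and 3. Both libraries numbered 2 were high and both numbered 3 low. The fold between the 2 libraries was 1.60 in Vav1R63W and 1.65 in the other group, against a ratio of group means of 0.907. The fitted log2 difference was -0.12 ± 0.35 (SE, edgeR adjusted p = 1.00) and turned positive without Vav1R63W replicate 2 (0.23) or without labelled deletion 3 (0.18). Stat3 and Stat5a run towards each other and share 72 exon bases. The strand columns held 19 to 78 more Stat3 reads and 25 to 81 more Stat5a reads per library than the unstranded column, in which reads from shared bases count for neither gene.

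The STAT5 pair is encoded side by side, Stat5b at chromosome 11, 100780731 to 100850724 (minus strand, ENSMUSG00000020919), and Stat5a at 100859351 to 100885169 (plus strand, ENSMUSG00000004043). Stat5a was at 101 and 92.9 CPM in Vav1R63W and 101 and 119 CPM in labelled deletions 2 and 3. Labelled deletion 2 lay between the Vav1R63W values and labelled deletion 3 above them. On the log2 scale the fit gave 0.21 ± 0.28 (SE, edgeR adjusted p = 1.00), interval -0.55 to 0.96. Stat5b was at 238 and 407 CPM in Vav1R63W and 296 and 233 CPM in the others. Vav1R63W replicate 3 stood above the remaining libraries, and without it the log2 fold change moved from -0.27 ± 0.33 (SE, edgeR adjusted p = 1.00) to 0.20. The coding sequences of the pair are close to identical in places, so reads that fit both may be lost as multimapping, and the levels of each are uncertain to that extent.

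Stat6 (ENSMUSG00000002147, chromosome 10, 127642986 to 127660957, plus strand) was at 331 and 280 CPM in Vav1R63W and 321 and 482 CPM in labelled deletions 2 and 3. Labelled deletion 3 was the highest library, and labelled deletion 2 lay within the Vav1R63W range. The fit gave 0.43 ± 0.27 on the log2 scale (SE, edgeR adjusted p = 1.00), interval -0.30 to 1.16, and it was 0.07 without labelled deletion 3. Without labelled deletion 2 it was 0.70 with edgeR (adjusted p = 0.462), and DESeq2 then called it (adjusted p = 0.00110) along with 21.1% of genes. Stat4 (ENSMUSG00000062939, chromosome 1, 51987148 to 52107189, plus strand) was at 64.4 and 43.0 CPM in Vav1R63W and 39.8 and 76.2 CPM in the others. The labelled deletions held both the lowest and the highest value. The log2 fold change of Stat4 was 0.15 ± 0.55 (SE, edgeR adjusted p = 1.00) and ran from -0.43 to 0.55 as single libraries were left out.

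**Figure D3:**
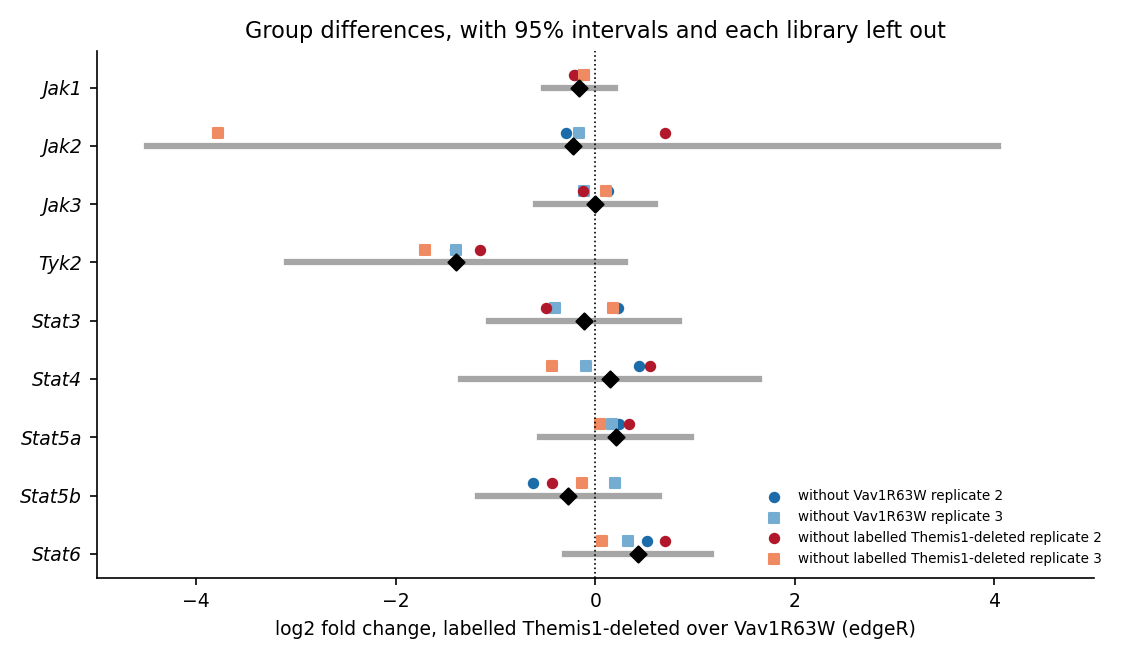
Log2 fold change of each gene, labelled Themis1-deleted over Vav1R63W (diamonds, edgeR), with 95% intervals (grey lines) and the value without each library in turn (coloured points). Every interval crosses 0. Jak1, Tyk2, Stat5a and Stat6 keep their sign in all 4 omissions, and Jak2 runs from -3.78 to 0.70.

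The difference between the group means was larger than the difference between the libraries of either group for 2 of the 9 genes, Jak1 and Tyk2 (22.2%), and for 20.2% of all tested genes. For Jak1 the difference of mean log2 CPM was 0.18 in size, against 0.04 within Vav1R63W and 0.15 within the other label. For Tyk2 it was 1.45, against 0.04 and 0.51. The median size of the log2 difference between the 2 Vav1R63W libraries was 0.24 for the 9 genes, 0.66 for all tested genes and 0.44 for the 5866 tested genes with a mean of at least 20 CPM. Between the labelled deletions these medians were 0.51, 0.87 and 0.56.

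**Figure D4:**
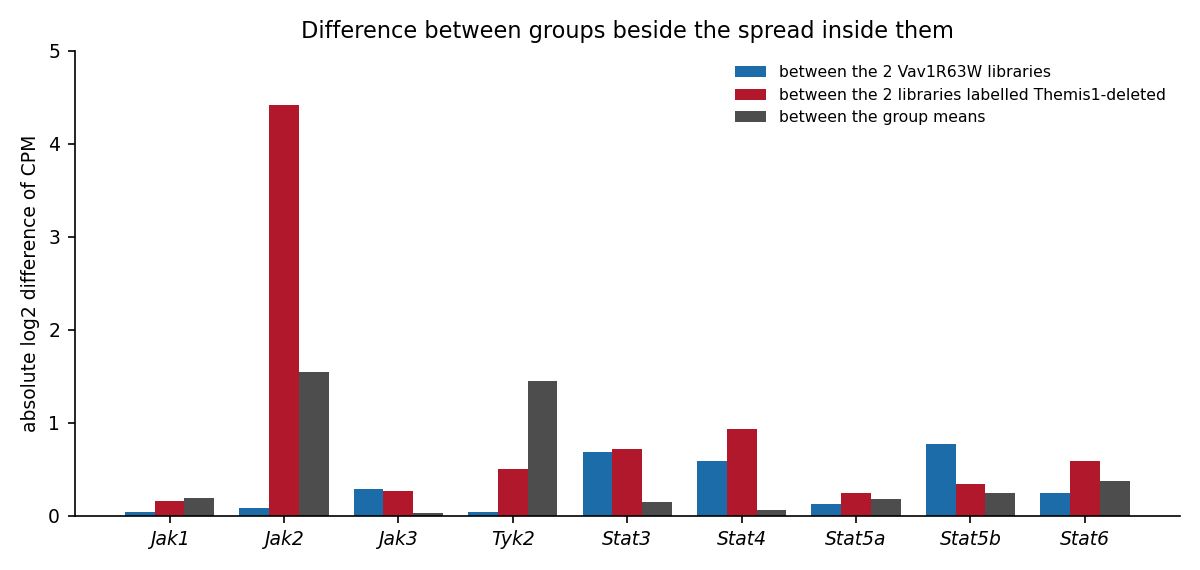
Absolute log2 difference of CPM between the 2 Vav1R63W libraries (blue), between the 2 libraries labelled Themis1-deleted (red) and between the group means (grey). The grey bar is the tallest for Jak1 and Tyk2, and the red bar of Jak2 reaches 4.42.

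The genes around the JAKs and STATs came from lists of receptor chains, ligands, inhibitors and targets. Of 84 listed genes 58 were tested, and edgeR called 0 higher and 0 lower, with 4 at an unadjusted p under 0.05 (Il21r, Gzmb, Socs5 and Il18r1), a threshold that 4.98% of all tested genes pass. There were 30 positive and 28 negative fold changes and a median log2 fold change of 0.02. Of 24 receptor chains 18 were tested, 8 positive and 10 negative, with a median of -0.12. The most abundant were the shared chains Il2rb, at 1559 and 1165 CPM in Vav1R63W and 1193 and 1156 CPM in the labelled deletions, and Il2rg, at 707 and 612 against 809 and 607 CPM. Il2rb and Il2rg overlapped between groups. Il21r, whose receptor signals through JAK1, JAK3 and STAT3, was at 476 and 507 CPM against 305 and 228 CPM. It lay below both controls in both libraries, as do 18.7% of tested genes (log2 fold change -0.86 ± 0.19, edgeR adjusted p = 0.900, DESeq2 adjusted p = 0.0423, a test that calls 1.88% of all genes). Of 19 ligands 12 had no read in any library and 4 were tested. The most abundant ligands were Osm, at 18.4 and 24.4 against 32.6 and 29.6 CPM, and Ebi3, at 2.21 and 9.17 against 12.6 and 10.7 CPM. Both were higher in the labelled deletions, as are 15.1% of tested genes, without passing (edgeR adjusted p = 1.00 each).

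Inhibitors and phosphatases had 16 tested genes, 5 positive and 11 negative, with a median log2 fold change of -0.23. The most abundant were the receptor phosphatase gene Ptprc, at 561 and 642 CPM in Vav1R63W and 560 and 749 CPM in the labelled deletions, and Ptpn1, a phosphatase acting on JAK2 and TYK2, at 316 and 353 against 382 and 198 CPM. Both overlapped. Cish, whose promoter is printed above and which is named for that reason, was at 122 and 136 against 191 and 162 CPM. Both labelled deletions lay above both controls, as for 15.1% of tested genes, with a log2 fold change of 0.47 ± 0.24 (SE, edgeR adjusted p = 1.00). The related inhibitors Socs1 and Socs2 overlapped between groups. Socs1 was at 154 and 163 against 138 and 190 CPM (log2 fold change 0.08). Socs2, also a listed STAT5 target, was at 133 and 153 against 98.5 and 138 CPM (log2 fold change -0.25). Socs3, the other printed promoter, was at 53.6 and 97.8 against 137 and 77.5 CPM and overlapped (log2 fold change 0.52 ± 0.50, edgeR adjusted p = 1.00). Only its labelled deletion 2 lay above the controls, and labelled deletion 3 lay between them. Socs5, another gene of that inhibitor family, had 54 and 12 reads against 0 and 1, without passing (edgeR adjusted p = 0.998, DESeq2 adjusted p = 0.699).

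STAT5 target genes had 14 tested members, 9 positive and 5 negative, with a median log2 fold change of 0.15. Ccnd2, a cyclin of the G1 phase, was at 1094 and 1207 CPM in Vav1R63W and 1263 and 1142 CPM in the labelled deletions, and Foxp3 at 904 and 636 against 1014 and 737 CPM. Neither separated the groups. Gzmb, which encodes the cytotoxic protease granzyme B, had 100 and 217 reads against 0 and 1 and was called by DESeq2 (adjusted p = 0.0311) but not by edgeR (adjusted p = 0.902). Il21r and Gzmb were the only DESeq2 calls among the 58 tested pathway genes, both lower, beside 206 of 10972 genes (1.88%) in all. The targets of STAT3, STAT4 and STAT6 had 10 tested members, 8 positive and 2 negative, with a median log2 fold change of 0.45. Over all tested genes 5121 were positive and 5095 negative, with a median of 0.00. Whether this list differs from that background was not tested. Their most abundant genes, Junb, an AP-1 subunit, at 493 and 420 against 532 and 354 CPM, and Il4ra, the interleukin-4 receptor chain, at 259 and 220 against 435 and 185 CPM, overlapped between the groups. Il18r1, a chain of the interleukin-18 receptor, had 5 and 2 reads in Vav1R63W and 209 and 100 in the labelled deletions, without passing (log2 fold change 5.33 ± 1.90, edgeR adjusted p = 0.965, DESeq2 adjusted p = 0.0952). Irf9, the DNA-binding partner of interferon-activated STATs, was at 292 and 244 against 324 and 305 CPM. It lay above both controls, as do 15.1% of tested genes, and was not called.

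For 8 of the 9 genes, all but Stat5b, the closest pattern is given among the other 8 and the 58 tested pathway genes, as the smallest root mean square difference of centred log2 CPM over the 4 libraries. Jak3 was closest to Il2rg (0.08), Jak1 to Il2 (0.09) and Stat5a to Il27ra (0.09). Il2 had a lower mean CPM than the ligands Osm and Ebi3, so its pattern rests on far fewer reads than that of Jak1. Stat6 was closest to Batf (0.12), as was Stat4 (0.18), and Stat3 was closest to Ifngr1 (0.15). Tyk2 was closest to Il21r (0.43) and Jak2 to Ptpn11 (0.76), the most distant matches. All genes share the depths and labels of the same 4 libraries, so these distances are descriptions only.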

How the data were processed

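The deposited files hold raw read counts per gene from STAR, one unstranded column and one per strand, 3 in all, per the layout of the files. Reads were passed through FastQC, Trim Galore and MultiQC, per the submitters' processing notes. The design text names Ensembl release 90 and the notes name mm9, which are different builds. Coordinates and exon lengths were taken by gene ID from GENCODE M21, on GRCm38, and played no part in counting. The authors' deposited table repeats the unstranded counts (equal for 52636 genes in every library) and gives a log2 fold change and p-values from DESeq2 through SARTools. Its 4 columns of normalized counts were not used. Summary lines, 21.1% to 23.1% of reads, were left out. The kit named in the labels does not mark strand.

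edgeR 4.0.16 (R 4.3.3; TMM, filterByExpr with a minimum count of 10 and total of 15, robust quasi-likelihood F test, two-sided) was fitted to all genes without a block. Its code was run on simulated data with less spread between libraries than Jak2, Tyk2 and Stat4 show here. The power to detect changes in these genes was not tested. CPM use library totals of reads on genes. Log2 CPM for spreads and patterns add 0.5 reads. Standard errors are the fold change over the square root of F, and 95% intervals use the fit's degrees of freedom. Symbols matched 52403 of 52636 IDs. Alternatives were DESeq2 1.42.0, limma-voom (limma 3.58.1), other scalings, filters and strand columns, a replicate block, and each library left out. The 9 genes and the lists were chosen with earlier results of these data known. A B cell marker, a pathway gene and the closest pattern of Stat5b are not reported here. Named beside the 9 were Themis, the 2 genes of each list with the highest mean CPM, and closest patterns. Il21r, Gzmb, Socs5 and Il18r1 were named for their p-values, Cish and Socs3 for their promoters, after their values were seen. Socs1 and Socs2 were set beside Cish, also after their values were seen.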

Additional observations from a re-analysis of the deposited data

How the results depend on the processing

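None of the 9 genes was called under the 13 alternatives chosen first. Jak1, Tyk2, Stat5a and Stat6 kept their sign in all 13, with log2 fold changes of -0.22 to -0.11, -1.71 to -1.15, 0.05 to 0.34 and 0.07 to 0.70. Without each library in turn, over edgeR and DESeq2, Jak2 ran from -3.78 to 0.71 and Jak3 from -0.12 to 0.13. Stat3 ran from -0.50 to 0.24, Stat4 from -0.43 to 0.56 and Stat5b from -0.63 to 0.20. A lone library is then assumed to vary like the other group. Jak3, near 0, also turned negative with library totals (-0.025), without a count filter (-0.0028) and in the first strand column (-0.0035). DESeq2 called 85 genes higher and 121 lower, 1.88% of 10972 genes in all, where edgeR and limma-voom called 0. Of the 58 tested pathway genes DESeq2 called 2 lower, Il21r and Gzmb.

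DESeq2 without each library, added after seeing the data, called 268 to 521 genes higher and 106 to 1667 lower. Of the 9 it called 0 to 1 higher (Stat6, without labelled deletion 2) and 0 to 2 lower (Jak2 and Tyk2, without labelled deletion 3), and of the pathway genes 1 to 3 higher and 0 to 7 lower. Whether same-numbered libraries share more than a number is not given in the labels. Their deviations correlated at r = 0.02 over 10216 genes, a value over all genes that cannot decide for single ones such as Stat3. With a replicate block edgeR called 0 genes, with Tyk2 at -1.43 and Jak2 at -1.52. With 2 libraries per group the 95% intervals stay wide. They run from 0.044-fold to 16.4-fold for Jak2, 0.117-fold to 1.23-fold for Tyk2 and 0.393-fold to 3.12-fold for Stat4.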
